A study of Arabidopsis thaliana with 5 samples.

Results

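In roots of Arabidopsis thaliana, 154 nuclear genes stood well below the control after 4 d at both ends of the magnesium supply, of 16181 genes compared. Each had 5 FPKM or more (fragment counts scaled to transcript length and library size) in at least one 4-d library, a log2 ratio to the control of -1 or less in low Mg and in high Mg, and low and high Mg less than 2-fold apart. A ratio of libraries a and b was log2((a + 1)/(b + 1)), with 1 FPKM added to both, which understates the difference of weakly expressed genes. The genes were thus chosen by their 4-d FPKM values, which are given as a description, without a test. The plants were 5 weeks old, of the line Col-1, and their roots were sampled after low Mg (0.5 µM Mg2+) or high Mg (10 mM Mg2+) for 4 d or 7 d, or as a control at 4 d. Each of the 5 groups is 1 library, and no 7-d control was used here, so no ratio has a replicate error.

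Heat shock proteins are chaperones that bind unfolded proteins and help them to refold, and most are made in larger amounts after heat, oxidants or other conditions that damage proteins. Their genes are switched on by heat shock factors, which bind repeated GAA blocks of alternating direction, called heat shock elements, near the gene start. Roots also take up nitrate, phosphate and metals through transporter families whose transcripts are known to change with supply.

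The 4-d libraries held about 10700000 (control), 12600000 (low Mg) and 11800000 (high Mg) fragments, and the 7-d libraries 6520000 (low Mg) and 10800000 (high Mg), as estimated from the spacing of low FPKM values. At 5 FPKM, a transcript of 1 kb then rests on 32.6 to 63.1 fragments, and this precision covers counting error only. The share of AT2G01021, a single locus, in the FPKM sum was 82.3% for the control, 75.5% for low Mg and 57.5% for high Mg at 4 d, against 18.5% and 15.6% at 7 d. The 7 root tissue markers stayed within 2-fold of the control at 4 d, with summed levels of 329 to 696 FPKM over the libraries, and the 6 green shoot markers summed to 3.57 to 10.2 FPKM. Bulk roots do not separate fewer cells of a type from less RNA per cell.

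The members were 0.952% of the genes compared. Over the same genes 1.66% had a log2 ratio of -1 or less in low Mg, 3.84% in high Mg and 1.21% in both, and nothing is read from these shares because the rule used both contrasts. Of the 154 members, 136 were protein coding, 7 were pseudogenes, 5 were other RNA genes and 6 had no gene model in the TAIR10.1 annotation. The protein-coding members with exons of 500 nt or more numbered 112. Their median log2 ratio to the control was -1.49 in low Mg and -1.77 in high Mg, where the median over all genes compared was -0.02 and -0.00. High Mg was the lower of the 4-d Mg libraries for 72 of these 112 genes and low Mg for 33. The rule bounded this ratio and the share over all genes was not computed, so nothing is read from these counts. In the control the 112 genes had a median of 317 approximate fragments, and only 4 rested on fewer than 50.

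**Figure D1:**
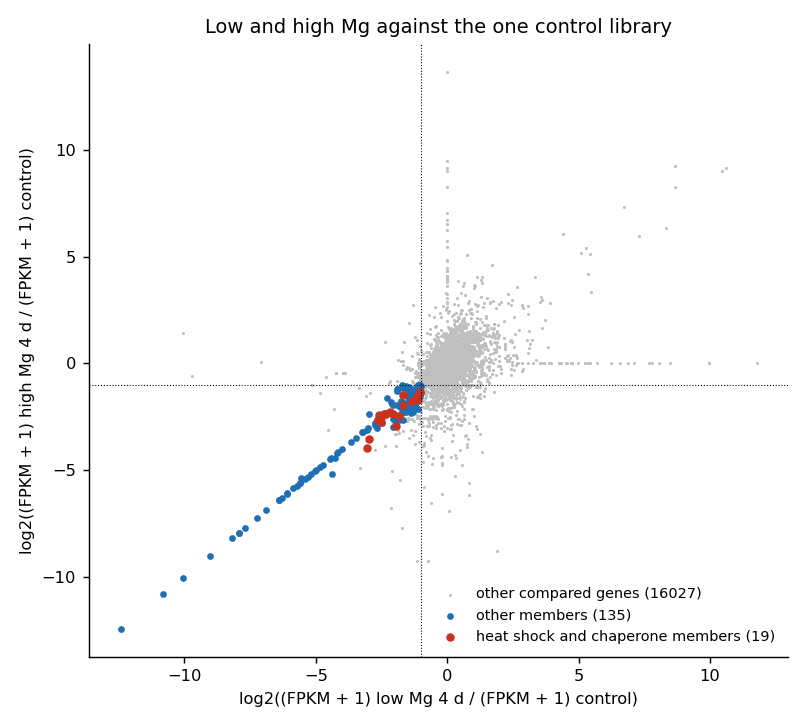
Log2 ratios to the control library in low Mg (x axis) and high Mg (y axis) at 4 d for the 16181 genes compared, with 1 FPKM added. Grey points are other genes, blue points other members and red points the 19 heat shock and chaperone members, and dotted lines mark -1. The members below about -5 on both axes are mostly loci listed at 0 in both Mg libraries.

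Chaperone and heat shock genes had more members than any other list. Of 36 listed heat shock proteins and factors with values, 25 passed the filter of 5 FPKM and were compared. A gene can pass this filter through the control alone, which favours genes that are high there. Of the 25, 14 were members and 24 lay below the control in both Mg libraries, by any margin, as did 36.2% of all genes compared. The list was written with earlier results of these data known, so its direction is not independent evidence. The list's median log2 ratio was -1.70 in low Mg and -1.92 in high Mg, against -0.02 and -0.00 over all genes, and no listed gene was 2-fold above the control. A further 5 members, 4 with a heat shock or chaperone product name and the peptidyl-prolyl isomerase gene AT2G21130, were added after their values were seen, giving 19 genes. Together these 19 summed to 1617 FPKM in the control, 303 in low Mg and 242 in high Mg at 4 d. A separate list of 9 endoplasmic reticulum chaperone genes had no member, and its median log2 ratios were -0.35 and -0.30. That list holds ERDJ3B, whereas the member ERDJ3A, a DnaJ protein named for the same compartment, was on the heat shock list.

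The heat shock element was searched for on both strands as the letters GAA, any 2 bases, TTC, any 2 bases and GAA, or the same pattern starting with TTC, from 250 bases before to 50 bases after the annotated gene start. It occurred in 5 of the 19 heat shock and chaperone members (26.3%), 5 of the other 117 protein-coding members (4.27%) and 0.569% of the 15822 protein-coding genes compared. In HSP70, HOP3, AT3G53830 and SR45a the match lay after the annotated start, at bases 21 to 33, 25 to 37, 28 to 40 and 37 to 49. The 250 bases before the start of 4 members follow, because they show where the element lies in a factor gene, a small heat shock protein gene, a sugar synthesis gene and a gene outside the group. They are read 5′ to 3′ on the gene's strand from the TAIR10.1 genome (RefSeq), with the matched letters in capitals. HSFA2 is on the plus strand (chr2:11135374-11135623), AT1G53540 on the plus strand (chr1:19980049-19980298), GolS1 on the minus strand (chr2:19370479-19370728) and MC6 on the plus strand (chr1:29836394-29836643).
HSFA2: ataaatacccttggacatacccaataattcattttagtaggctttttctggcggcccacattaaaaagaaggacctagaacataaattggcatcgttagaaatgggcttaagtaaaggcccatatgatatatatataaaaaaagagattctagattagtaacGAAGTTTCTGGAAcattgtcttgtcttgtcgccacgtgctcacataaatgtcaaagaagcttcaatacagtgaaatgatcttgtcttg
AT1G53540: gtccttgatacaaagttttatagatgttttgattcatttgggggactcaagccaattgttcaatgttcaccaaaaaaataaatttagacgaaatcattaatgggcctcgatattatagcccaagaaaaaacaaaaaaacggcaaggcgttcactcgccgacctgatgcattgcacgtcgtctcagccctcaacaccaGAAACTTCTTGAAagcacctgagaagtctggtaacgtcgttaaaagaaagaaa
GolS1: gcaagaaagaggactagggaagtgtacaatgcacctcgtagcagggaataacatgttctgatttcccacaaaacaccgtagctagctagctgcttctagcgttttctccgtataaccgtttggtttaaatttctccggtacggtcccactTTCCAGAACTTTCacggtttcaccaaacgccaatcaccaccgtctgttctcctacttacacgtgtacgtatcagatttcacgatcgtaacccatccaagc
MC6: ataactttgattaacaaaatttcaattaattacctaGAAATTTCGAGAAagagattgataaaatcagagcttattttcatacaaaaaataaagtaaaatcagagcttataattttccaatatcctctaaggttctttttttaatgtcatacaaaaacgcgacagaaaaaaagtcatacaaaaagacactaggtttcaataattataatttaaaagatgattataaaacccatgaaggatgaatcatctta
The element began 88 bases before the start of HSFA2, 53 before AT1G53540, 100 before GolS1 and 214 before MC6. Its shorter core, GAANNTTC or TTCNNGAA, which lies within the element and was added after the first search, occurred in 12 of the 19 genes (63.2%) and in 18.7% of the genes compared. A match is a description of letters and does not show binding, and its absence says only that these letters are not in the window.

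**Figure D2:**
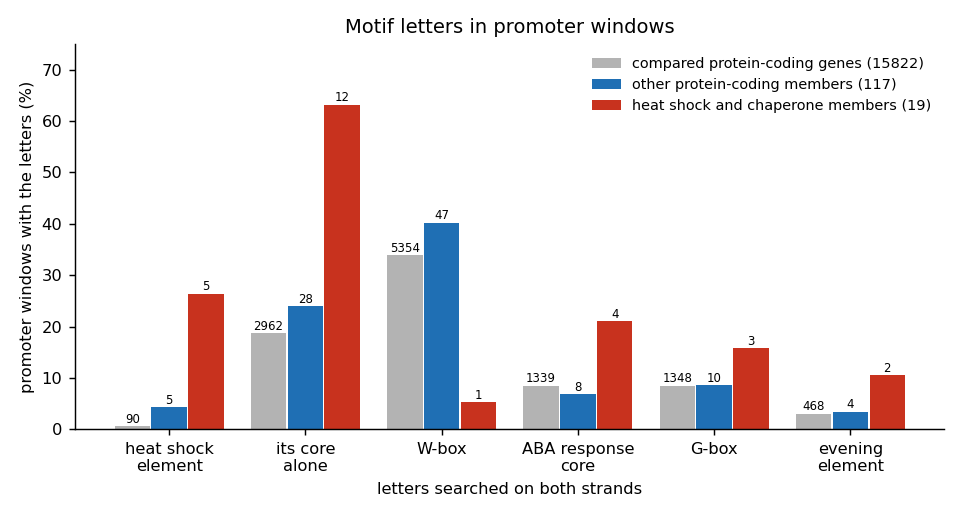
Share of 300-base promoter windows (y axis, percent) that hold each set of letters on either strand, for compared protein-coding genes (grey), other protein-coding members (blue) and heat shock and chaperone members (red). Numbers above the bars are genes with a match, and the heat shock element and its core stand highest in the red bars, where the W-box is in 1 of 19.

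The other motifs searched were the W-box (TTGACC or TTGACT), the abscisic acid response core (ACGTGTC or ACGTGGC), the G-box (CACGTG) and the evening element (AAAATATCT), of which the abscisic acid core and the G-box can share letters. The W-box, bound by WRKY factors, was in 35.3% of the 136 protein-coding members and 33.8% of the genes compared. Over the same 2 sets, the remaining shares were 8.82% against 8.46% for the abscisic acid core, 9.56% against 8.52% for the G-box and 4.41% against 2.96% for the evening element. In the 19 heat shock and chaperone members these 3 were in 4 (21.1%), 3 (15.8%) and 2 windows (10.5%), and the W-box in 1 (5.26%), so the heat shock element was not the sole motif with a higher share there than among the genes compared.

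Among the regulators, MBF1C, a transcriptional coactivator of the heat response, had 371 FPKM in the control, 59.2 in low Mg and 58.7 in high Mg at 4 d, and 5.90 and 11.4 in those conditions at 7 d. HSFA2, a heat shock factor that sustains the response, had 11.8, 1.42 and 1.47 FPKM at 4 d and 0.212 and 0.323 at 7 d. Both regulators were lowest at 7 d, with 4-d log2 ratios of -2.63 and -2.64 for MBF1C and -2.40 and -2.37 for HSFA2. The rule placed the control above both Mg libraries at 4 d. HSFA2 rested on about 236 fragments in the control, 33.6 and 32.4 in the 4-d Mg libraries, and only 2.59 (low Mg) and 6.56 (high Mg) at 7 d.

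HSP70 and HSP90.1 had the lowest 4-d ratios of the 19 genes. HSP70 (AT3G12580), which binds unfolded stretches of proteins, had 287 FPKM in the control, 34.0 in low Mg, 17.2 in high Mg, and 1.63 and 2.03 at 7 d. HSP90.1, which folds signalling proteins, had 209, 26.04 and 17.37 FPKM at 4 d and 0.719 and 2.26 at 7 d. Their log2 ratios were -3.04 and -3.98 for HSP70 and -2.96 and -3.52 for HSP90.1, so that high Mg was below low Mg for both. Hsp70-2 had 112 FPKM in the control, 28.5 and 13.9 under low and high Mg at 4 d, and 6.93 and 6.97 at 7 d. HSP101, which pulls proteins out of aggregates, had 27.6, 7.97 and 6.53 FPKM at 4 d and 5.51 and 2.82 at 7 d.

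Co-chaperone and isomerase genes lay in the same order. HOP3, which links HSP70 to HSP90, had 78.0 FPKM in the control, 16.4 and 15.6 under low and high Mg at 4 d, and 5.95 and 4.86 at 7 d. ROF2, a peptidyl-prolyl isomerase that acts with HSP90, had 71.9, 10.9 and 10.6 FPKM at 4 d and 2.93 and 4.14 at 7 d. The rule kept low and high Mg less than 2-fold apart at 4 d for each gene. The DnaJ-type co-chaperone genes, AT1G56300, AT2G20560 and ERDJ3A, had 67.1, 52.1 and 13.3 FPKM in the control, and their low Mg levels at 4 d were 32.2, 11.8 and 5.43. Their high Mg levels at 4 d were 25.8, 9.29 and 4.00, and the first of them had 0.520 and 2.01 FPKM at 7 d. AT2G21130, a cyclophilin-type isomerase, went from 35.1 FPKM in the control to 13.2 and 9.66 at 4 d and 1.79 and 0.607 at 7 d.

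Small heat shock proteins hold unfolded proteins until other chaperones act. AT5G51440, an HSP20-like protein, had 112 FPKM in the control, 19.4 in low Mg, 19.8 in high Mg, and 0 and 0.543 at 7 d. AT2G19310 of the same superfamily had 80.8, 15.1 and 14.9 FPKM at 4 d and 1.23 and 2.44 at 7 d. The other HSP20-like members were AT1G59860, AT1G07400 and AT1G53540, with control levels of 20.9, 20.6 and 7.78 FPKM and 4-d Mg levels of 0.599 to 3.13. HSP17.4 (42.6, 5.48 and 1.63 FPKM) and HSP17.6A (16.9, 3.92 and 1.05 FPKM) were also below the control at both Mg levels, but low Mg was more than 2-fold above high Mg, so they are not members. They are among 42 genes left out for that reason, of which 35 were lower in high Mg.

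GolS1, a galactinol synthase that starts the synthesis of raffinose-type sugars, departed from the other 18 genes at 7 d. It had 29.4 FPKM in the control, 13.1 in low Mg and 8.36 in high Mg at 4 d, and at 7 d 6.11 and 28.9. The 7-d high Mg library thus stood at 98.2% of the control, while the other 18 genes had both 7-d levels below both 4-d Mg levels. HSA32, which maintains acquired heat tolerance, had 8.70, 1.99 and 2.54 FPKM at 4 d and 0.269 and 1.89 at 7 d. The same order, with both 7-d levels below both 4-d Mg levels, held for 40 of the other 93 coding members of 500 nt or more and for 46.3% of all genes compared. The 4-d and 7-d tables may have been processed differently, since no source used here gives the tools of the latter, so day and processing cannot be told apart.

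**Figure D3:**
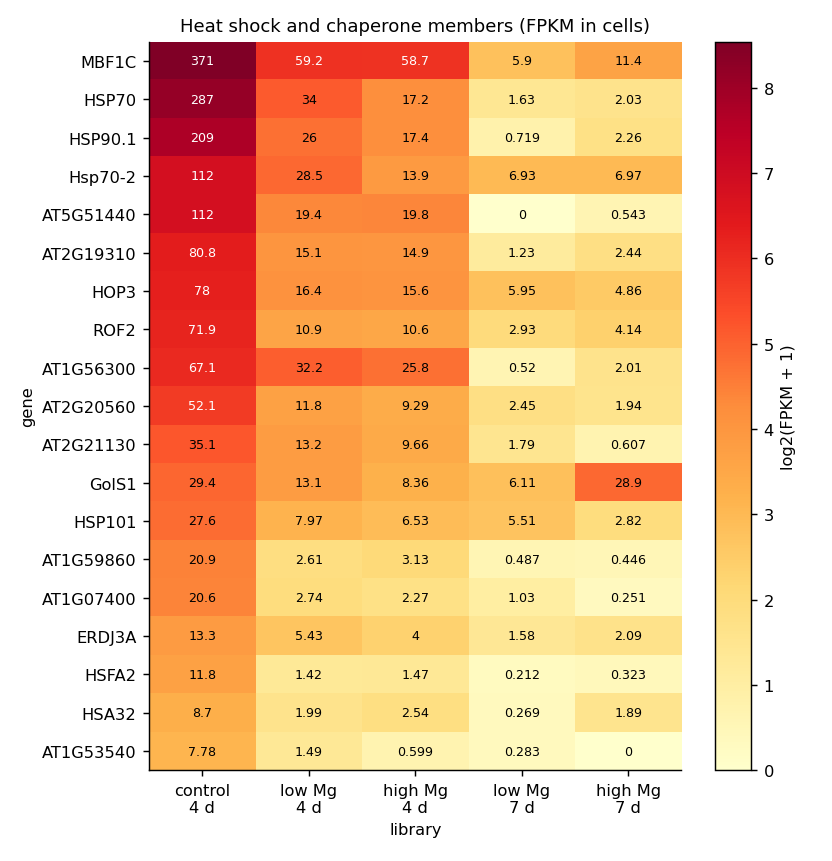
FPKM of the 19 heat shock and chaperone members (rows) in each of the 5 libraries (columns, 1 library per group), with colour showing log2(FPKM + 1). The control column is the highest in every row, and the 7-d columns are the lowest except for GolS1 in high Mg.

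SR45a, a splicing factor whose window holds the heat shock element, was named after its values were seen. It had 142 FPKM in the control, 49.3 in low Mg and 54.6 in high Mg at 4 d, and 18.5 and 19.3 at 7 d. TIN1, a protein induced by the glycosylation inhibitor tunicamycin, had 13.9, 2.76 and 1.29 FPKM at 4 d and 0.444 and 0.379 at 7 d. Both were lower at 7 d than at 4 d, in the order of the chaperone genes.

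Nitrate and ammonium uptake and assimilation gave 2 of 25 compared list genes as members, with list medians of -0.37 in low Mg and -0.21 in high Mg. The list was mixed: 15 of the 25 lay below the control in both Mg libraries, by any margin, as did 36.2% of all genes compared. In low Mg, 1 of the 25 was 2-fold or more above the control. NRT3.1, the partner protein that high-affinity nitrate transporters need, had 1663 FPKM in the control, 619 in low Mg and 441 in high Mg at 4 d, and 203 and 210 at 7 d. NRT1.5, which loads nitrate into the xylem, had 679, 327 and 238 FPKM at 4 d and 421 and 281 at 7 d. NRT3.1 was lower at 7 d than at 4 d at each Mg level, whereas NRT1.5 was higher at 7 d. Their log2 ratios at 4 d were -1.42 and -1.91 for NRT3.1 and -1.05 and -1.51 for NRT1.5. NRT2.1, the main high-affinity transporter, had 1341, 135 and 44.6 FPKM at 4 d, which is outside the rule because low and high Mg were more than 2-fold apart. DUR3, a urea transporter, had 22.04, 4.55 and 5.01 FPKM at 4 d and 1.62 and 1.19 at 7 d.

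Phosphate transport and starvation genes gave 3 members of 18 compared, with list medians of -0.28 and -0.37. PHT1;3, a phosphate uptake transporter, had 47.2 FPKM in the control, resting on about 790 fragments, and was listed at 0 in both 4-d Mg libraries and in high Mg at 7 d. It had 0.0922 FPKM with low Mg after 7 d, so the control alone carried the transcript above 1 FPKM. Its neighbour PHT1;2, 4484 nt away, had 19.1, 5.26 and 2.22 FPKM at 4 d and 4.16 and 1.46 at 7 d. Exon sequence of PHT1;2 shared 45.6% of its 50-base words with other genes, mostly PHT1;1, so its value is uncertain. PAP17, a secreted acid phosphatase, had 11.2, 3.096 and 3.55 FPKM at 4 d and 1.94 and 3.93 at 7 d. G3Pp1, a glycerol-3-phosphate transporter, had 15.1, 2.90 and 1.67 FPKM at 4 d and 5.06 and 11.97 at 7 d, where high Mg was above low Mg. PPCK1, a kinase of phosphoenolpyruvate carboxylase, had 139, 59.6 and 60.7 FPKM at 4 d and 75.02 and 107 at 7 d.

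For metals, OPT3, a transporter involved in moving iron in the phloem, was the sole member of 16 iron genes compared. It had 21.6 FPKM in the control, 4.18 in low Mg, 5.39 in high Mg, and 3.02 and 4.07 at 7 d. The iron list had median log2 ratios of 0.37 and 0.32. Of the 16 genes, 6 lay below the control in both Mg libraries, by any margin, as did 36.2% of all genes compared. Nothing is read from that count. ZIP5, a zinc transporter family member named after its values were seen, had 36.5, 17.0 and 11.3 FPKM at 4 d and 4.00 and 5.03 at 7 d. FSD1, an iron superoxide dismutase that takes over from copper enzymes when copper is scarce, had 27.6, 6.71 and 10.5 FPKM at 4 d. At 7 d FSD1 had 827 FPKM in low Mg and 47.7 in high Mg, both above the control. It was the sole member of 6 copper and superoxide dismutase genes compared, whose medians were -0.07 and 0.07.

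The remaining lists gave 1 member or none each, where 0.952% of all genes compared were members. The lists are short and were written with earlier results of these data known. Nothing is read from these counts or from those of the nitrate, phosphate, iron and copper lists. Salicylate and defence genes gave 1 of 14, abscisic acid and dehydration genes 1 of 7, sugar starvation and export genes 1 of 8, and neither the 7 camalexin and indole glucosinolate genes, the 8 clock genes nor the 8 low-oxygen genes gave any. Median log2 ratios in low and high Mg were 0.26 and -1.01 for salicylate genes, 0.40 and 0.97 for abscisic acid genes and 0.14 and -0.27 for sugar genes. They were 0.34 and -1.08 for camalexin genes, -0.07 and -0.08 for clock genes and 0.02 and 0.16 for low-oxygen genes. PR2, a defence glucanase, had 5.53 FPKM in the control and 0.0721 to 0.147 in the other 4 libraries, where it rested on about 1.16 to 2.51 fragments. BGLU30, a glucosidase known from sugar starvation, had 10.4, 3.32 and 1.72 FPKM at 4 d and 2.402 and 3.07 at 7 d. The abscisic acid receptor genes PYL2 and PYL3 had 26.9 and 6.43 FPKM in the control, 11.9 and 0.441 in low Mg and 12.6 and 0.472 in high Mg at 4 d. RD22, a dehydration-responsive gene, had 6.34, 2.38 and 2.65 FPKM at 4 d.

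Among abundant members, SAG20, a senescence-associated gene, had 989 FPKM in the control, 364 and 455 under low and high Mg at 4 d, and 177 and 191 at 7 d. LTP2, a lipid transfer protein, had 391, 141 and 161 FPKM at 4 d and 58.5 and 43.3 at 7 d. With the libraries rescaled to the same summed FPKM, the log2 ratio of high Mg to the control at 4 d turned to 0.17 for SAG20 and 0.0063 for LTP2. LTP3, a relative of LTP2 named after its values were seen, had 106, 20.7 and 33.5 FPKM at 4 d. GLP4, a germin-like protein, was higher at 7 d than at 4 d in high Mg, with 256, 106 and 67.3 FPKM at 4 d and 60.5 and 103 at 7 d. EXPA17, an expansin that loosens cell walls, had 129 FPKM in the control, 15.4 and 24.5 under low and high Mg at 4 d, and 17.37 and 79.5 at 7 d. Its high Mg level at 7 d exceeded both 4-d Mg levels.

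Among transcription regulators was ZFP5, a zinc finger protein that promotes hair formation, with 32.0 FPKM in the control, 12.8 and 9.002 under low and high Mg at 4 d, and 4.05 and 11.0 at 7 d. WRKY29, a factor of the immune response, had 84.0, 38.6 and 39.6 FPKM at 4 d and 14.8 and 44.4 at 7 d. For both genes high Mg was above low Mg at 7 d, with log2 ratios of low over high Mg of -1.25 and -1.52. MIF3, a mini zinc finger gene, had 14.6, 3.61 and 3.57 FPKM at 4 d, and RL3, a RAD-like gene, had 9.89, 2.04 and 0.737. BDG1, which acts in cuticle formation, had 5.81, 1.78 and 1.85 FPKM at 4 d and 2.498 and 0.946 at 7 d. MC6, a metacaspase gene, had 42.9, 19.0 and 19.0 FPKM at 4 d and 19.7 and 23.4 at 7 d, so it was nearly level over the 4 Mg libraries.

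**Figure D4:**
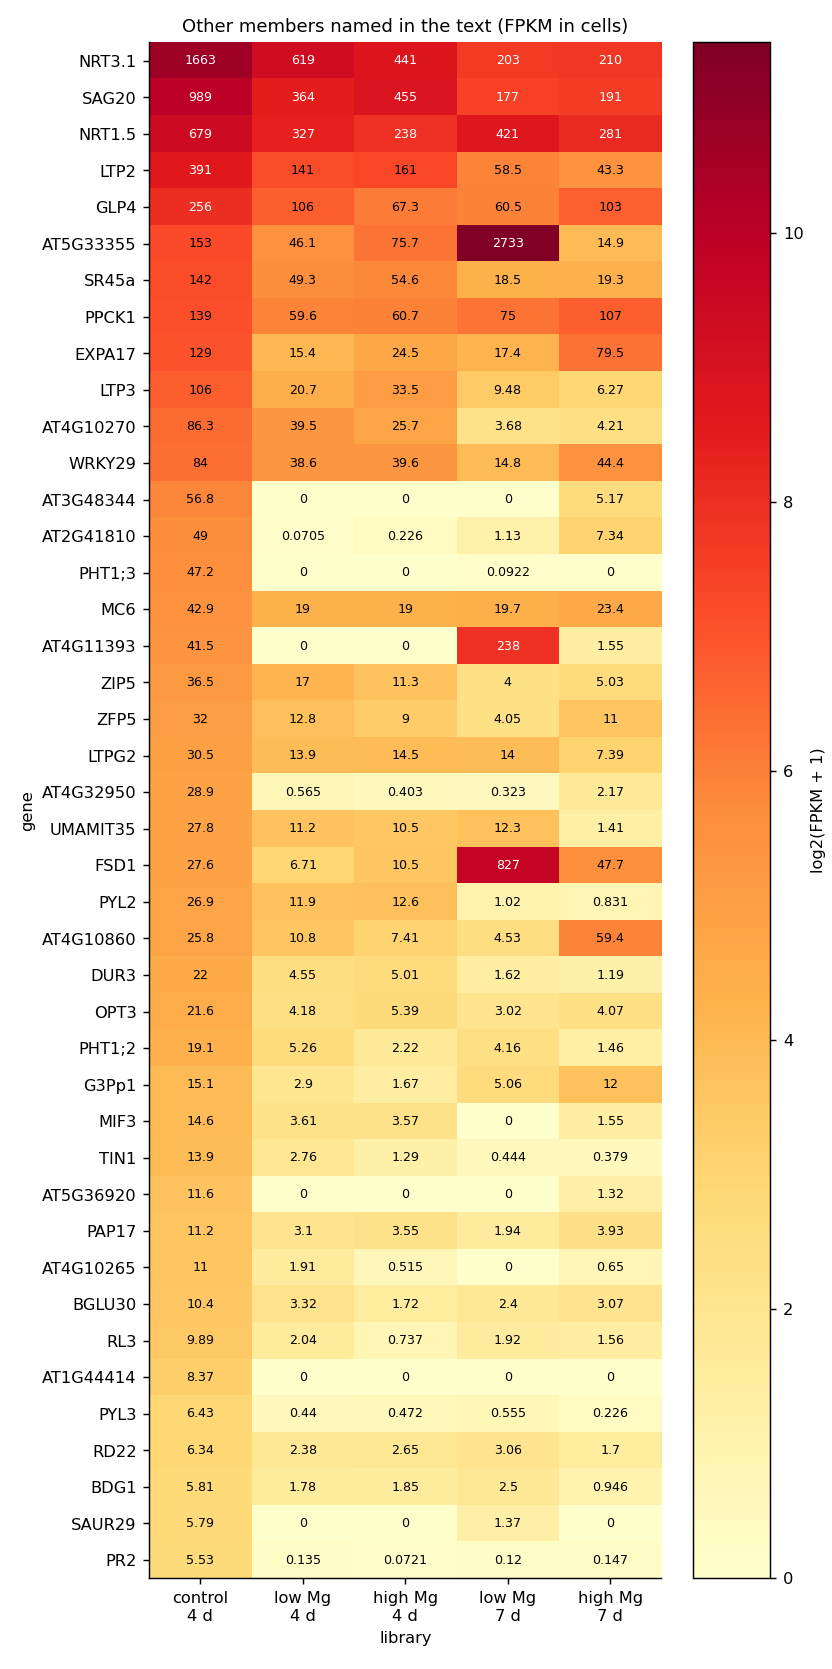
FPKM of the other members named here (rows) in each of the 5 libraries (columns, 1 library per group), with colour showing log2(FPKM + 1). FSD1, AT5G33355 and AT4G11393 reach their highest level in low Mg at 7 d, at 827, 2733 and 238 FPKM.

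Absence from a library marked 37 members, listed at 0 in both 4-d Mg libraries. The rule does not allow a 0 in the control. Where 1 Mg library is at 0, the rule keeps the other below 1 FPKM. No member was at 0 in just 1 of those Mg libraries, and nothing is read from this. Of the 37, 20 had exons under 250 nt and 29 were under 500 nt or without a gene model, whereas 0.719% of annotated genes compared are under 250 nt. A single fragment on such a locus gives a large FPKM, and 24 of the 37 were above 0 in at least one 7-d library. Among the 7 coding genes of 500 nt or more, AT3G48344 had 56.8 FPKM in the control and 5.17 in high Mg at 7 d, with 0 in the other 3 libraries. AT5G36920 had 11.6 FPKM in the control, 1.32 in high Mg at 7 d and 0 elsewhere, and AT1G44414 had 8.37 in the control and 0 elsewhere. SAUR29, an auxin-responsive gene, had 5.79 FPKM in the control and 1.37 in low Mg at 7 d. Close to absence, AT2G41810 had 49.0 FPKM in the control and 0.0705 and 0.226 at 4 d, and AT4G32950, a protein phosphatase of the PP2C family, had 28.9, 0.565 and 0.403. Both were named after their values were seen.

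At 7 d the comparison of low with high Mg did not enter the rule. Of the 154 members, 69 had 5 FPKM or more in a 7-d library, and 13 of these were 2-fold higher and 17 2-fold lower in low than in high Mg, where 2.54% and 3.21% of 15684 genes were. The remaining 85 were below 5 FPKM in both. Because a gene that passes the filter through its higher library alone tends to differ, these counts are given as a description. The median log2 ratio of the 69 was -0.01, against 0.00 over all genes, and members lay on both sides.

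Among coding members of 500 nt or more, the defensin-like genes AT5G33355 and AT4G11393 were the most different at 7 d. AT5G33355 had 153 FPKM in the control, 46.1 and 75.7 under low and high Mg at 4 d, and 2733 and 14.9 at 7 d. AT4G11393 had 41.5 FPKM in the control, 0 in both 4-d Mg libraries, and 238 and 1.55 at 7 d. Their log2 ratios of low over high Mg at 7 d were 7.42 and 6.55, and that of FSD1 was 4.09. AT5G33355 shares 28.1% of its 50-base words with AT3G59930, so reads may be divided between them. UMAMIT35, of an amino acid transporter family, had 12.3 FPKM in low Mg and 1.42 in high Mg at 7 d, and 27.8, 11.2 and 10.5 at 4 d. On the other side, AT4G10860, an uncharacterized protein gene, had 25.8, 10.8 and 7.41 FPKM at 4 d and 4.53 and 59.4 at 7 d.

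**Figure D5:**
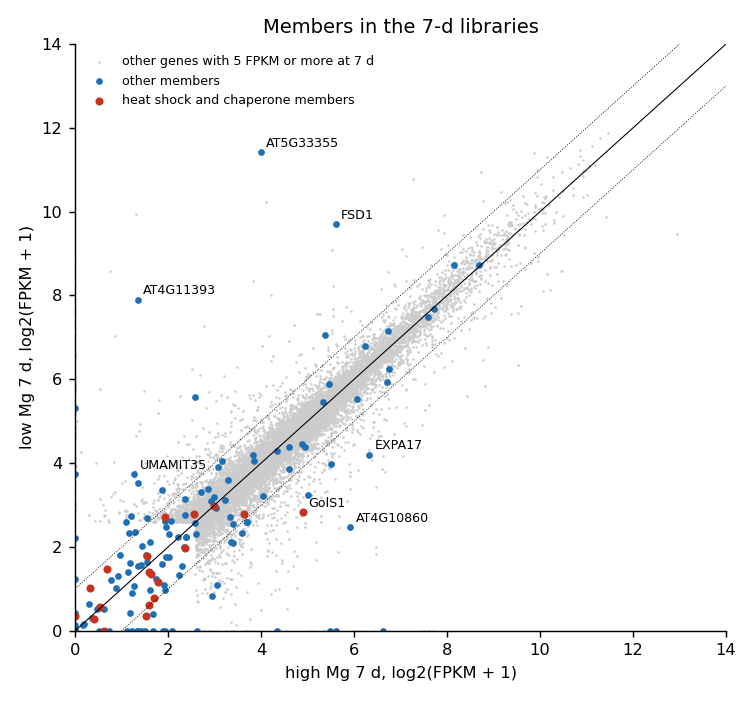
Levels in low Mg (y axis) and high Mg (x axis) at 7 d as log2(FPKM + 1), for the members (blue, and red for heat shock and chaperone members) and other genes with 5 FPKM or more (grey). The solid line marks equal levels and dotted lines a 2-fold difference, and AT5G33355, FSD1 and AT4G11393 are among the named members above it.

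Set against the 4-d control, 121 of the 154 members had a log2 ratio of -1 or less in both 7-d libraries, where 11.1% of genes with 5 FPKM or more in the control were. Nothing is read from this count, since the control library also chose the members and the libraries differ in day. Another 11 were that low in low Mg alone, 12 in high Mg alone and 10 in neither, where 15.5% of those genes were that low in low Mg and 14.7% in high Mg. Of the members, 4 were above the control in both. The share over all genes was not computed for this count, so nothing is read from it. The median log2 ratio of the members to the control at 7 d was -2.56 in low Mg and -2.64 in high Mg, against -0.21 and -0.21 over all genes.

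Exons of 40 members overlapped those of another gene, 38 of them on the other strand. Among the 38 were MBF1C, HOP3, HSP101, GolS1, ERDJ3A, AT1G56300, AT2G20560, NRT1.5, PAP17, PPCK1, GLP4, WRKY29, BDG1, AT1G44414 and AT4G10270. No source used here gives the libraries' strandedness, so reads of such pairs cannot be told apart. The 148 members with a gene model lay on all 5 chromosomes, with 43, 26, 27, 22 and 30 on chromosomes 1 to 5, and formed 3 pairs within 10 kb. Shares over all genes were not computed for overlaps, chromosomes or pairs, so nothing is read from these counts. One pair, the wound-responsive family genes AT4G10265 and AT4G10270, lay 1067 nt apart and had 11.0 and 86.3 FPKM in the control, 1.91 and 39.5 in low Mg, and 0.515 and 25.7 in high Mg at 4 d.

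Close to the threshold, the members with a symbol and exons of 500 nt or more that came nearest to it were RD22 (-1.12 in low Mg and -1.01 in high Mg), LTPG2 (-1.08 and -1.02) and PYL2 (-1.11 and -1.04). With the same restriction, just outside it were Cpn60beta2 (-1.14 and -0.998), the chaperone gene Fes1A (-0.98 and -1.02) and CYP86A4 (-0.98 and -0.98). Rescaling the libraries to the same summed FPKM, in which AT2G01021 has the largest share, gave 83 members, 76 of them among the 154 and 7 new, and raised the median ratio of all genes by 0.45 in low Mg and 1.24 in high Mg. When loci under 250 nt or without a gene model were kept out of the sum, 149 members were found, all of them among the 154. Under the first rescaling, checked here for the named members only, high Mg at 4 d was above the control for PPCK1, WRKY29, MC6, PYL2, RD22, LTPG2 and AT5G33355 too.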

How the data were processed

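RNA-seq of roots gave 5 libraries, 1 per group, with groups taken from the sample titles. The values deposited by the authors are FPKM, a unit read from the submitters' tool list and the values, since no label names it. For the 4-d samples, TopHat2 2.0.8 and Cufflinks 2.1.1 are named with the TAIR10 build in the submitters' processing notes. For the 7-d samples those notes name the build only. Their aligner and counter, like the libraries' strandedness, were not given in the sources used here.

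The ratio was log2((a + 1)/(b + 1)), with a filter of 5 FPKM and no scaling (Python 3.11.15, pandas 2.3.3, numpy 2.4.6). Of 33559 loci, 33280 are nuclear and 32817 were found in the TAIR10.1 annotation. Fragments were estimated from FPKM, exon length and library size. Members and gene lists were chosen with earlier results of these data known. Of the gene list entries, 229 were kept and 5 dropped because the annotation does not pair them with their locus. Genes were named by a fixed rule: the lowest ratios, the highest control levels, list members and the extremes at 7 d. DUR3, ZIP5, LTP3, LTPG2, SR45a, HSA32 and the loci AT4G10270, AT4G10265, AT5G33355, AT2G19310, AT2G20560, AT1G56300, AT2G21130, AT2G41810, AT4G32950, AT4G10860 and AT1G53540, and the genes outside the rule NRT2.1, HSP17.4 and HSP17.6A, were named after their values were seen. The selection code was run on simulated data with planted decreases and counting noise only. That run does not cover variation between real libraries and says nothing about the members found here. With 1 library per group no test was run.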

Additional observations from a re-analysis of the deposited data

Results flagged for a closer look

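Low and high Mg stood in the opposite order on the 2 days for 59 of the 154 members, by any margin. The 37 members at 0 in both 4-d Mg libraries have no order at 4 d and could not be counted. The share over all genes was not computed, so nothing is read from this count. The difference was at least 0.5 on the log2 scale at 4 d and at least 1 at 7 d for 4 of the 59. The log2 ratio of low over high Mg was 0.60 at 4 d and -2.07 at 7 d for GolS1, and 0.55 and -1.10 for G3Pp1. It was -0.58 and 4.09 for FSD1, and -0.70 and 7.42 for AT5G33355. Each value compares 1 library with 1 other, and the difference between days was not tested.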

How the results depend on the processing

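The number of members, 154, was 92 with a filter of 20 FPKM and 83 with nuclear values rescaled to the same sum. It was 110 to 214 under the other alternatives, and the same-sum rescaling without short loci was chosen after seeing the data. Members 2-fold apart at 7 d, 30, became 46 with no filter and 14 with a filter of 20 FPKM. Those with a log2 ratio to the control of -1 or less in both 7-d libraries, 121, became 43 with the same sum. List members, 24, became 15 with a filter of 20 FPKM. With the same sum, the sign of the log2 ratio of high Mg at 4 d to the control was checked for the named members only. It changed for SAG20 (0.17), LTP2 (0.0063), RD22 (0.025), WRKY29 (0.20), PPCK1 (0.093), MC6 (0.11), PYL2 (0.18), LTPG2 (0.21) and AT5G33355 (0.27). This rescaling multiplied all high Mg values at 4 d by the same factor, 1.29 on the log2 scale. Why the FPKM sums differ between libraries was not tested. No paired analysis was possible because each group has 1 library.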
